A study of Mus musculus with 12 samples.

Results

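The genes described here are those of interleukin-2 (Il2), the chains of its receptor (Il2ra, Il2rb and Il2rg), the transcription factors that the receptor activates (Stat5a and Stat5b) and genes that STAT5 switches on, most of them feedback inhibitors (Cish, Socs1, Socs3 and Pim1). They were listed by name, 10 in all, and read from the deposited expression table. For 9 of the 10 a probe set with that gene symbol alone was found, among 19938 genes measured in this way; the expression of Il2rg was not analysed here. The names, not the measured values, made the list, although earlier results of these data were known when it was drawn up.

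The measurements were log2 intensities from 12 gene arrays, 4 per group. Each array held RNA of CD4+ T cells of C57Bl/6 mice that had divided at least 2 times after transfer into B6D2F1 hosts, which as F1 hybrids carry a second set of histocompatibility genes that the donor cells attack. The hosts of 1 group received TCDD, a long-lived dioxin that activates the aryl hydrocarbon receptor (AhR), at 15 µg/kg on day 0; those of another received Cl-BBQ, a different AhR ligand, at 2 mg/kg on days 0 and 1; the control hosts received vehicle on days 0 and 1. All mice were 10 to 12 weeks old, all hosts had received donor cells, and spleen and lymph node cells were taken on day 2, bead-selected for CD4 and sorted on dilution of the dye CFSE. The doses and schedules of both compounds differ, and the vehicle schedule is that of Cl-BBQ. The labels call the 4 arrays of a group biological replicates. In sorted bulk RNA, fewer cells of a kind and less RNA per cell cannot be told apart.

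Activated T cells secrete interleukin-2 within hours of antigen contact and, through it, drive their own division and survival. The cytokine binds a receptor of an α chain (Il2ra, CD25), which raises affinity, and of β and γ chains, which signal through JAK1 and JAK3 to phosphorylate STAT5A and STAT5B. STAT5 dimers bind the palindrome known as GAS and induce Il2ra itself, the kinase gene Pim1, and Cish and the Socs genes, whose proteins bind receptors or JAKs and dampen the signal. STAT5 and Blimp-1, the product of Prdm1, are known to reduce Il2 transcription, whereas the NF-κB protein c-Rel and the NFAT factors activate it.

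Il2, Socs3 and Cish differ in whether the GAS palindrome lies at their starts. The bases before the start of Il2 and Socs3, and a short stretch at the start of Cish, are shown for this reason. They come from RefSeq on GRCm38.p6, 5′ to 3′ on the strand of the gene. The Il2 window of 250 bases lies on the minus strand at chr3:37125955-37126204, and capitals mark GGAAA, the core that NFAT factors bind, on either strand. The Socs3 window of the same length lies on the minus strand at chr11:117969367-117969616, and capitals mark the GAS palindrome TTCNNNGAA. The Cish stretch of 20 bases lies on the plus strand at chr9:107296659-107296678, just past the annotated start, with the same palindrome in capitals.
Il2: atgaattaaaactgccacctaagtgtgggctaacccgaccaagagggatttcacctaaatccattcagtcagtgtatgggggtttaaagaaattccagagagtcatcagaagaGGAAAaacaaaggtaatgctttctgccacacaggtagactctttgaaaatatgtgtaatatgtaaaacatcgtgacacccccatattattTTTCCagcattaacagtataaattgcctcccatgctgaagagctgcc
Socs3: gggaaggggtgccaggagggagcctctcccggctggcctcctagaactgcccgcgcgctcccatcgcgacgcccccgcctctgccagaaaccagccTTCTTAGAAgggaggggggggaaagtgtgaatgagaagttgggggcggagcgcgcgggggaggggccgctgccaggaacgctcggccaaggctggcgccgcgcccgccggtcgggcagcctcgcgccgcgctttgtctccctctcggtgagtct
Cish: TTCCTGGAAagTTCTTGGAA

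Il2 held the NFAT core at bases -137 to -133 and, on the other strand, at -47 to -43 from its start. It held no GAS palindrome. The NFAT core was not particular to Il2, although capitals mark it only there. Socs3 held it at -135 to -131, and Cish at -1 to 4, 6 to 10, 17 to 21 and 35 to 39. Socs3 held 1 palindrome at -154 to -146, and Cish held 2 side by side, at bases 1 to 9 and 12 to 20 past the start, with 0 in the 250 bases before it. RefSeq windows were found for 9 of the 10 genes, in 12 entries since Stat5a, Stat5b and Pim1 had 2 starts each. The Socs3 palindrome was the only one before a start. Of the genes with windows, all but Cish held the NFAT core before a start. Over all 32851 windows of 250 bases, 7.02% held the GAS palindrome and 55.6% the NFAT core, on either strand. The letters GCGTG, the core to which AhR binds with its partner, occurred before 1 of the Stat5b starts and before Il2rg, and in 28.2% of all windows; TGANTCA, bound by AP-1 factors, occurred in none of the members' windows and in 6.75% of all. A match is a run of letters and was not tested for binding.

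With TCDD, Il2 fell and Pim1 and Socs3 rose, while the receptor chains, both STAT5 genes, Cish and Socs1 did not pass the test. A gene is said to have risen or fallen, or to be called, where limma's p, adjusted by the method of Benjamini and Hochberg across the 19938 genes, is below 0.05. Thus 3 of 9 members were called against 1.24% of all genes. With Cl-BBQ 0 of 9 were called, against 0.196% of all genes. An unadjusted limma p under 0.05 was found for 6 of the 9 with TCDD: Il2, Socs3, Pim1, Il2ra, Il2rb and Cish. With Cl-BBQ it was found for 3 of the 9: Il2, Socs3 and Pim1. Among all 19938 genes such a p was found for 1733 with TCDD and 1577 with Cl-BBQ. The median difference of the 9 members was 0.06 log2 with TCDD and 0.03 with Cl-BBQ, beside 0.00 and 0.01 for all genes.

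**Figure D1:**
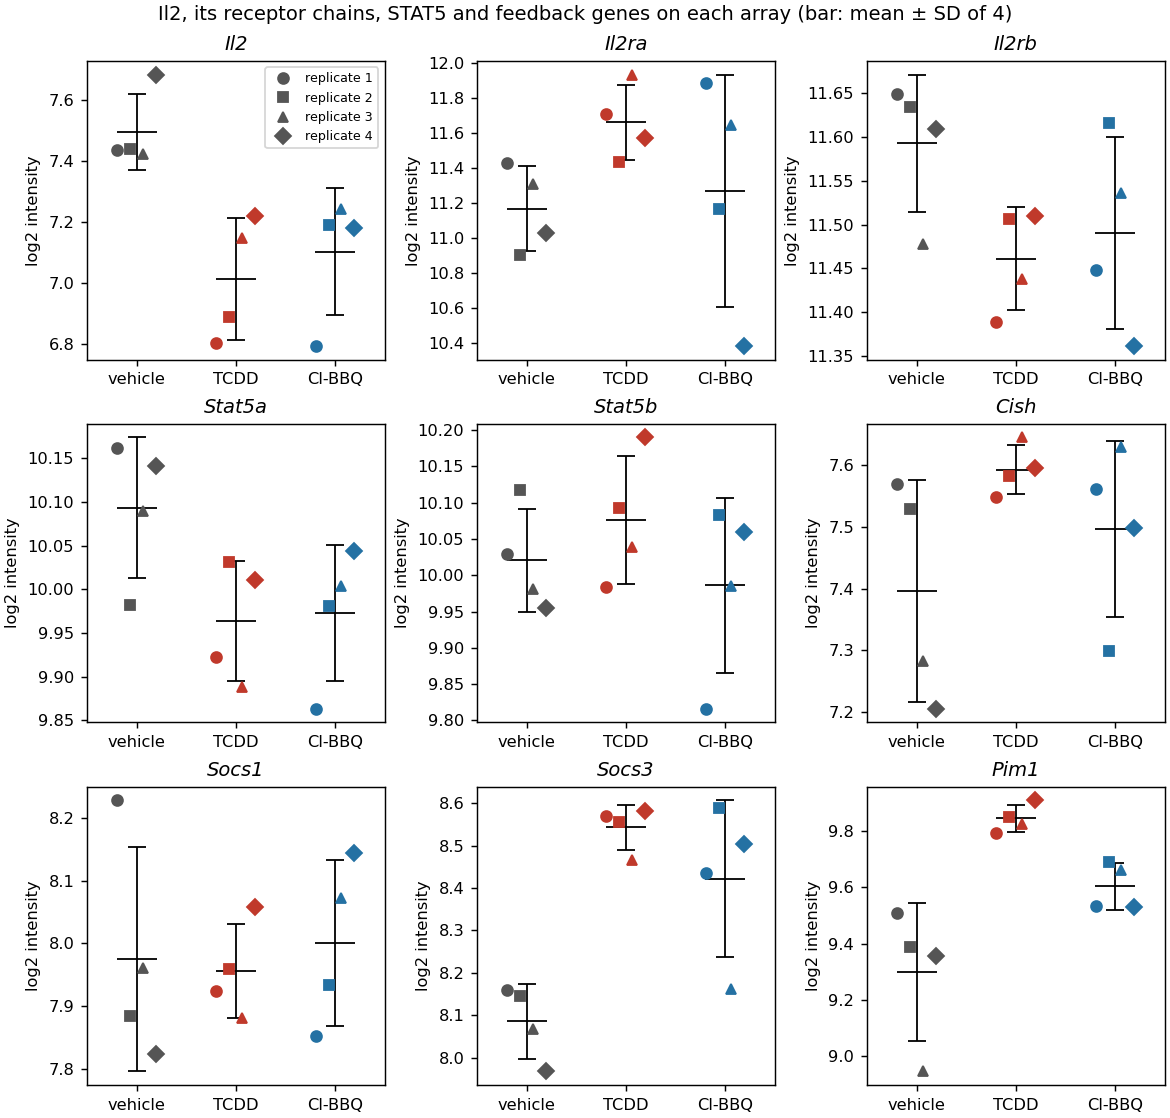
Log2 intensity (vertical axes, each gene on its own scale) of the 9 measured members on the 12 arrays, by group on the horizontal axis; marker shapes give the replicate number, and bars the mean ± SD of 4. In Il2, Socs3 and Pim1 every treated array lies on 1 side of all vehicle arrays, with Socs3 on Cl-BBQ array 3 level with the highest vehicle array.

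Il2, the cytokine itself (probe set 10497878), read 7.44, 7.44, 7.42 and 7.68 on the 4 vehicle arrays. With TCDD it read 6.80, 6.89, 7.15 and 7.22, and with Cl-BBQ 6.79, 7.19, 7.24 and 7.18. All 8 treated arrays lay below all 4 vehicle arrays, and the treated groups overlapped. The signal was low: the means of 7.01 with TCDD and 7.10 with Cl-BBQ lay below every array median, 7.11 to 7.24. The mean of 7.50 ± 0.12 (SD, n = 4) in vehicle fell by 0.48 log2 with TCDD, a 1.40-fold change (standard error 0.11, 95% interval -0.72 to -0.25; limma adjusted p = 0.0415). With Cl-BBQ the difference was -0.39 (interval -0.63 to -0.16; adjusted p = 0.245). The call with TCDD was near the threshold: it was lost in 7 of the 8 fits that left out 1 array, all but the one without TCDD replicate 4, with adjusted p up to 0.157, and also without an intensity trend (0.0548), after median centring (0.0621) and after quantile normalization (0.0729). The difference stayed between -0.55 and -0.41 in the 8 fits.

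The difference between the compounds in Il2 was -0.09 log2, TCDD minus Cl-BBQ (interval -0.32 to 0.14; adjusted p = 1). With the mean of both compounds set against vehicle, a contrast that shares the vehicle arrays with the others, Il2 was lower by a difference of -0.44 (interval -0.64 to -0.24; adjusted p = 0.0307), and its call was lost in 5 of 12 fits without 1 array, namely without each vehicle array and without TCDD replicate 2, with adjusted p up to 0.161. It was also lost after quantile normalization (adjusted p = 0.0527).

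Il2ra, the α chain and itself a STAT5 target, read 11.43, 10.90, 11.31 and 11.03 with vehicle and 11.71, 11.43, 11.93 and 11.57 with TCDD. The lowest TCDD array thus lay just above the highest vehicle array. The difference was 0.49 log2 (interval 0.00 to 0.98; adjusted p = 0.569), and it was called in a fit of these 8 arrays alone (adjusted p = 0.0364). The Cl-BBQ arrays read 11.88, 11.17, 11.65 and 10.38. They held both the second highest and the lowest of all 12 values, with an SD of 0.66 where vehicle had 0.24 and TCDD 0.21. The Cl-BBQ difference of 0.10 (interval -0.39 to 0.59; adjusted p = 0.941) ran from -0.10 without replicate 1 to 0.40 without replicate 4, so that its sign rested on single arrays. The TCDD fit of all 12 arrays takes in this spread.

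Il2rb, the β chain that carries the STAT5 docking sites, varied little. It read 11.65, 11.64, 11.48 and 11.61 with vehicle, 11.39, 11.51, 11.44 and 11.51 with TCDD, and 11.45, 11.62, 11.54 and 11.36 with Cl-BBQ. The groups overlapped, vehicle array 3 lying within the TCDD range and Cl-BBQ array 2 within the vehicle range. The difference was -0.13 with TCDD (interval -0.26 to -0.01; adjusted p = 0.514) and -0.10 with Cl-BBQ (interval -0.23 to 0.02; adjusted p = 0.702).

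Stat5a and Stat5b encode the near-identical factors below the receptor, and their transcript levels say nothing of phosphorylation. Stat5a was at 10.09 ± 0.08 with vehicle, 9.96 ± 0.07 with TCDD and 9.97 ± 0.08 with Cl-BBQ. Its differences were -0.13 (interval -0.27 to 0.01; adjusted p = 0.629) and -0.12 (interval -0.26 to 0.02; adjusted p = 0.687). Stat5b was at 10.02 ± 0.07, 10.08 ± 0.09 and 9.99 ± 0.12, and its intervals of -0.10 to 0.21 and -0.19 to 0.12 lie around 0. In both genes the arrays of all groups overlapped. The lowest Cl-BBQ value of each gene came from replicate 1, at 9.86 and 9.82.

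Socs3, which blocks JAK activity at receptors, read 8.16, 8.15, 8.07 and 7.97 with vehicle and 8.57, 8.56, 8.47 and 8.58 with TCDD. The groups lay well apart. Socs3 rose 1.37-fold with TCDD, by 0.46 log2 (standard error 0.09, interval 0.27 to 0.64; adjusted p = 0.0111), and the call held in all 8 fits without 1 array (adjusted p from 0.023 to 0.049). With Cl-BBQ it read 8.44, 8.59, 8.16 and 8.50. Replicate 3 was level with the highest vehicle array and the other 3 lay in or near the TCDD range; the difference was 0.34 (interval 0.15 to 0.52; adjusted p = 0.176), and without replicate 3 it was 0.42 and called (adjusted p = 0.0442). On that same array Cyp1b1, a known AhR target, read 5.93, below the vehicle range of 6.25 to 6.57, where the other Cl-BBQ arrays read 7.89 to 8.24. Nqo1, another known AhR target, read 6.59 on that array, slightly above the vehicle range of 6.10 to 6.52. The other Cl-BBQ arrays read 7.03 to 7.67 in Nqo1. Whether these readings are linked to that of Socs3 was not tested.

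A second probe set carried the Socs3 symbol (10383010, beside 10393449 above). It read 7.78, 7.83, 7.74 and 7.81 with vehicle, 8.18, 8.27, 8.13 and 8.18 with TCDD, and 8.07, 8.29, 8.08 and 8.03 with Cl-BBQ. Here Cl-BBQ array 3 lay with its group, clear of vehicle. Among all 21789 single-symbol probe sets its difference was 0.40 with TCDD (adjusted p = 0.0064) and 0.33 with Cl-BBQ (interval 0.18 to 0.48; adjusted p = 0.0868). The probe sets thus differed on Cl-BBQ array 3 and gave like mean differences. The average of both was not called with Cl-BBQ either (0.33, adjusted p = 0.0883).

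Pim1, a kinase that promotes survival and growth below STAT5, read 9.51, 9.39, 8.94 and 9.36 with vehicle, 9.80, 9.85, 9.83 and 9.91 with TCDD, and 9.53, 9.69, 9.66 and 9.53 with Cl-BBQ. The groups did not overlap, in the order vehicle, Cl-BBQ, TCDD, although the lowest Cl-BBQ array exceeded the highest vehicle array by little. Pim1 rose 1.46-fold with TCDD, by 0.55 log2 (standard error 0.10, interval 0.34 to 0.76; adjusted p = 0.00695), and kept its call in all 8 fits without 1 array (adjusted p from 0.00528 to 0.032). The difference was 0.31 with Cl-BBQ (interval 0.10 to 0.51; adjusted p = 0.374). Without vehicle replicate 3, the low array at 8.94, it was 0.43 with TCDD and 0.19 with Cl-BBQ. TCDD exceeded Cl-BBQ by 0.24 (interval 0.03 to 0.45; adjusted p = 1); that interval is for a single gene, uncorrected.

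Cish and Socs1, the other feedback inhibitors, did not pass the test. Cish, which competes for docking sites of STAT5, read 7.57, 7.53, 7.28 and 7.21 with vehicle, and its TCDD values, 7.55, 7.58, 7.65 and 7.60, lay above 3 of the 4 vehicle arrays and overlapped with the first. Its difference was 0.20 with TCDD (interval 0.01 to 0.39; adjusted p = 0.546) and 0.10 with Cl-BBQ (interval -0.09 to 0.29; adjusted p = 0.819). The vehicle arrays of Cish had an SD of 0.18 and the TCDD arrays 0.04. Socs1, an inhibitor of JAK kinases, read 7.82 to 8.23 with vehicle, 7.88 to 8.06 with TCDD and 7.85 to 8.14 with Cl-BBQ, so that the vehicle range held both others. Its differences were -0.02 (interval -0.21 to 0.18) with TCDD and 0.03 (interval -0.17 to 0.22) with Cl-BBQ.

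**Figure D2:**
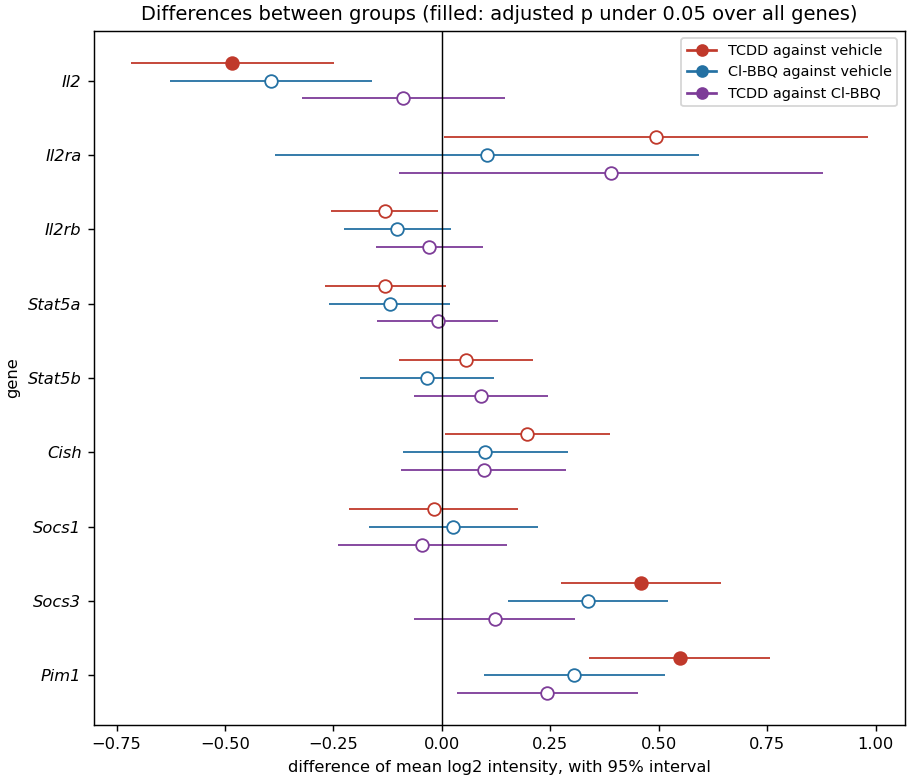
Difference of mean log2 intensity with its 95% interval (horizontal axis) for each member (vertical axis) in 3 comparisons of 4 arrays with 4, from the fit of all 12 arrays; filled points were called. Il2 at -0.48, Socs3 at 0.46 and Pim1 at 0.55 with TCDD are the filled points, and the Cl-BBQ points of these genes lie on the same side of 0.

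Between TCDD and Cl-BBQ, 0 of 9 members were called (limma), beside 0.015% of all genes. An unadjusted p under 0.05 was found for 1 member (Pim1) and for 596 of the 19938 genes. With the replicate number as a block, the count of called genes went from 3 to 5 and that of members remained 0. Same-numbered arrays of these groups deviated together to differing degrees, and the labels state no pairing. Set against vehicle together, the compounds gave calls for the same 3 members as TCDD alone, 2 higher and 1 lower, beside 1.23% of all genes: Socs3 at 0.40 (adjusted p = 0.012), Pim1 at 0.43 (adjusted p = 0.0171) and Il2. In this contrast the Socs3 call was lost without vehicle replicate 4 (0.36; adjusted p = 0.0714), while Pim1 kept its call in all 12 such fits. Groups without overlap were found for 4 of 9 members with TCDD (5.8% of all genes), 3 with Cl-BBQ (3.85%), 1 between the compounds (2.04%) and 3 for both compounds against vehicle (1.67%).

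Among arrays of the same treatment, 1 pair of members passed a test for moving together. Deviations from the group means were correlated over the 12 arrays for 36 pairs of members, with p from 100000 permutations of arrays within groups. Only Il2rb and Pim1 passed after adjustment over the 36 pairs (r = 0.78, p = 9e-05, adjusted p = 0.00324; Spearman rho = 0.86, p = 9e-05, adjusted p = 0.00324). The distinct arrangements of 4 arrays within each group are fewer than the draws. The p of 9e-05, the same for r and rho, thus lies near the smallest that can be reached. Without the 2 arrays farthest from the median in Il2rb, vehicle 3 and Cl-BBQ 4, r was 0.72. Arrays high in Il2rb for their group were thus high in Pim1, while the TCDD differences of these genes were -0.13 and 0.55. For all other pairs the adjusted permutation p was 0.901 or more for r and 0.639 or more for rho. Their r ran from -0.63 (Il2ra and Stat5b) to 0.65 (Stat5a and Socs1). With 12 arrays, not passing does not show that a pair was unrelated. The permutations treat the arrays as independent. Deviations of same-numbered TCDD and Cl-BBQ arrays correlated over all genes at 0.606, 0.113, 0.157 and 0.365, and whether the numbers pair arrays remained undecided. If they do, the p of the passing pair may be too small. All points also share the normalization of the arrays.

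The genes whose log2 values were most like those of a member over the 12 arrays were looked up among up to 9969 genes at or above the median level. For Il2 they were Rel (r = 0.94, and 0.90 for deviations within groups), Myb (0.93 and 0.82) and Ncoa1 (0.93 and 0.81). Rel encodes c-Rel, and Myb a transcription factor of dividing lymphoid cells. For Il2ra they were Sec24a, a coat protein of vesicles leaving the endoplasmic reticulum (0.96 and 0.96), Dpy19l1 and Gdi2, and for Cish Selenot (0.89 and 0.84), Cd163l1 and Parp12. For Socs3 they were Trib2, a pseudokinase (0.94 and 0.77), Rasgrp4 and Hic1, a transcriptional repressor (0.93 and 0.70). For Pim1 they were Nckap1 (0.95 and 0.90), Mlkl, the effector of necroptosis (0.93 and 0.70), and Ngly1. These were the highest of all values compared and carry no test; where the value within groups is lower, part of the likeness is the shared difference between treatments.

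**Figure D3:**
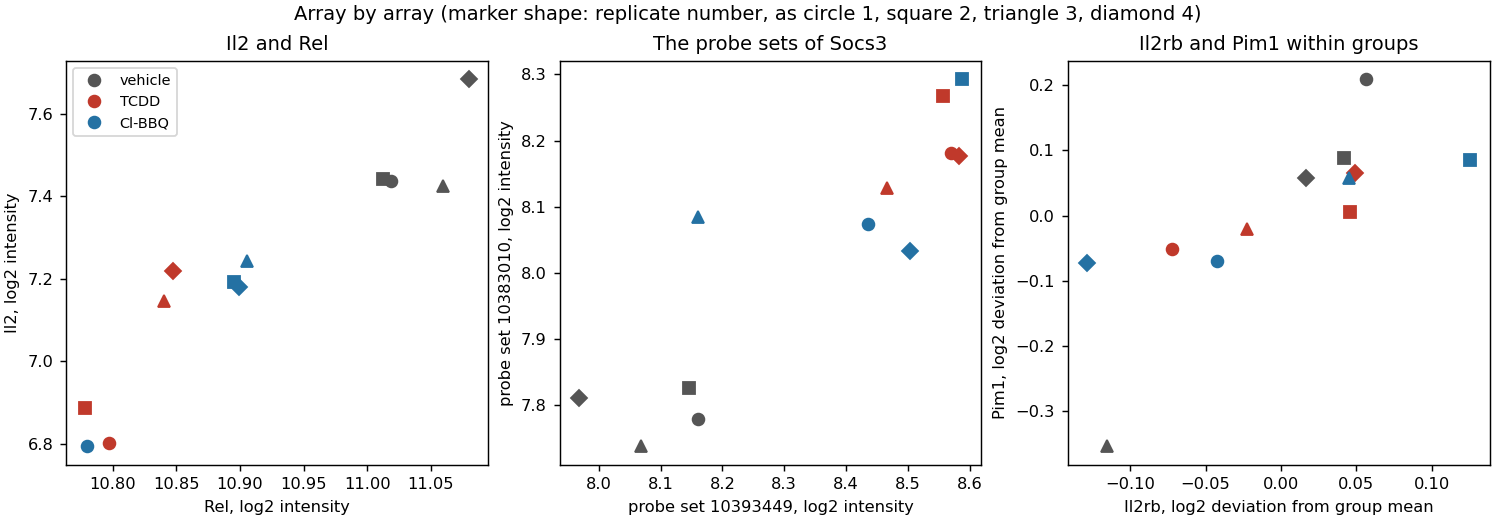
Each point is 1 of 12 arrays, coloured by group. Left, log2 intensity of Rel (horizontal) and Il2 (vertical), with all vehicle arrays at the top right; middle, the probe sets of Socs3 against each other, with Cl-BBQ array 3 (blue triangle) at 8.16 on one and 8.08 on the other; right, deviations of Il2rb and Pim1 from their group means, with vehicle array 3 (grey triangle) lowest in Pim1.

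Other genes of the pathway were read from 9 lists, which hold 78 distinct measured genes. With TCDD 4 of the 78 rose and 2 fell, 7.69% beside the 1.24% of all genes; with Cl-BBQ 1 rose (1.28%). The lists were drawn up with earlier results of these data known, and several of the called genes were among those results. The median difference of the 78 was -0.0024 log2 with TCDD and -0.0007 with Cl-BBQ.

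Regulators of Il2 transcription held a called gene on both sides. Of 12 activators, Rel fell with TCDD and 11 did not pass. Rel read 11.02, 11.01, 11.06 and 11.08 with vehicle, 10.80, 10.78, 10.84 and 10.85 with TCDD, and 10.78, 10.90, 10.91 and 10.90 with Cl-BBQ. No treated array reached the vehicle range, as in Il2. The decrease with TCDD was 1.17-fold (difference -0.23, interval -0.33 to -0.12; adjusted p = 0.0282), and the Cl-BBQ difference was -0.17 (adjusted p = 0.254). The median of the activators was 0.00 with TCDD and -0.02 with Cl-BBQ.

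Of 10 repressors of Il2, Prdm1 rose with TCDD and 9 did not pass. Its vehicle arrays read 8.08, 8.09, 7.67 and 7.97, its TCDD arrays 9.12, 9.09, 9.53 and 8.96, and its Cl-BBQ arrays 9.13, 8.73, 8.69 and 8.06. Only Cl-BBQ array 4 lay within the vehicle range. The differences were 1.22 with TCDD (adjusted p = 0.00122) and 0.70 with Cl-BBQ (adjusted p = 0.159). Ikzf3, which encodes the repressor Aiolos, was at 11.68 ± 0.07 with vehicle, 12.00 ± 0.11 with TCDD and 11.97 ± 0.20 with Cl-BBQ, and rose for both compounds together (0.31, interval 0.16 to 0.46; adjusted p = 0.0349). The median of this list was -0.06 with TCDD, so that Prdm1 and Ikzf3 stand for themselves.

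Of 17 genes that IL-2 and STAT5 are known to induce, 4 rose with TCDD, 1 fell and 12 did not pass, where 1.24% of all genes were called. Gzmb, a granule protease, rose by 1.72 log2 (10.61 ± 0.55 to 12.33 ± 0.24; adjusted p = 0.00115), Prdm1 as above, Id2, a transcriptional regulator of effector cells, by 0.49 (adjusted p = 0.0332), and the inhibitory receptor gene Ctla4, named after its value was seen, by 0.34. Lta, a cytokine of the TNF family, was lower by a difference of -0.42 (8.26 ± 0.21 against 7.84 ± 0.06; adjusted p = 0.0303). With Cl-BBQ Gzmb alone was called, at 1.33 (adjusted p = 0.0385). Both compounds together gave 4 higher and 1 lower, the same 5 genes as TCDD. The list median was 0.06 with TCDD and 0.01 with Cl-BBQ, with members on both sides of 0: 11 and 9 of the 17 differences were positive. An unadjusted limma p under 0.05 was found for 8 of the 17 with TCDD, 7 with Cl-BBQ and 10 for both compounds together. Among all 19938 genes it was found for 1733, 1577 and 1980.

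Of 5 measured genes that IL-2 signals are known to repress, none passed with either compound, by limma, at unadjusted p under 0.05 for 1 each. The gene of the interleukin-7 receptor chain, Il7r, read 10.30, 10.59, 10.11 and 9.82 with vehicle, 10.48, 10.88, 11.32 and 10.70 with TCDD, and 10.86, 11.22, 10.81 and 10.64 with Cl-BBQ. It was thus higher, not lower, in most treated arrays, and overlapped with vehicle through TCDD array 1. The differences were 0.64 (interval 0.28 to 1.01; adjusted p = 0.107) and 0.68 (interval 0.31 to 1.05; adjusted p = 0.163), and for both compounds together Il7r rose by 0.66 (adjusted p = 0.0386).

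Il7r also belongs to the 5 receptor chains that pair with the common γ chain. All 5 had positive differences with each compound, with medians of 0.19 and 0.18, and 0 passed with either by limma. An unadjusted p under 0.05 was found for 3 with each, beside 1733 of the 19938 genes with TCDD and 1577 with Cl-BBQ. Il7r was the 1 called gene of this list for both compounds together. The 5 cytokines of these receptors had medians of -0.0042 and 0.04; Il21, a cytokine of helper T cells, had the largest difference, 0.50 with TCDD (9.51 ± 0.38 to 10.01 ± 0.26; adjusted p = 0.261).

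Signalling parts below the receptor gave no calls with either compound or between them. That held for 9 kinases and adaptors, where Pik3cd, a catalytic subunit of PI3 kinase, had the largest TCDD difference, 0.19 (adjusted p = 0.507); for 4 other STAT genes, where Stat4, which serves the interleukin-12 receptor, had 0.18 (adjusted p = 0.103); and for 13 other SOCS genes and brakes on JAK-STAT signalling, where Ptpn11, the phosphatase SHP-2, had -0.24 (adjusted p = 0.108). Ptpn11 read 10.70 to 10.89 with vehicle, 10.53 to 10.68 with TCDD and 10.47 to 10.69 with Cl-BBQ, so that all treated arrays were below the lowest vehicle array. With limma the number of genes at unadjusted p under 0.05 was 2, 1 and 2 for these lists with TCDD. It was 0, 0 and 1 with Cl-BBQ, and 0 in each list between the compounds. Among all 19938 genes it was 1733 with TCDD, 1577 with Cl-BBQ and 596 between the compounds.

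**Figure D4:**
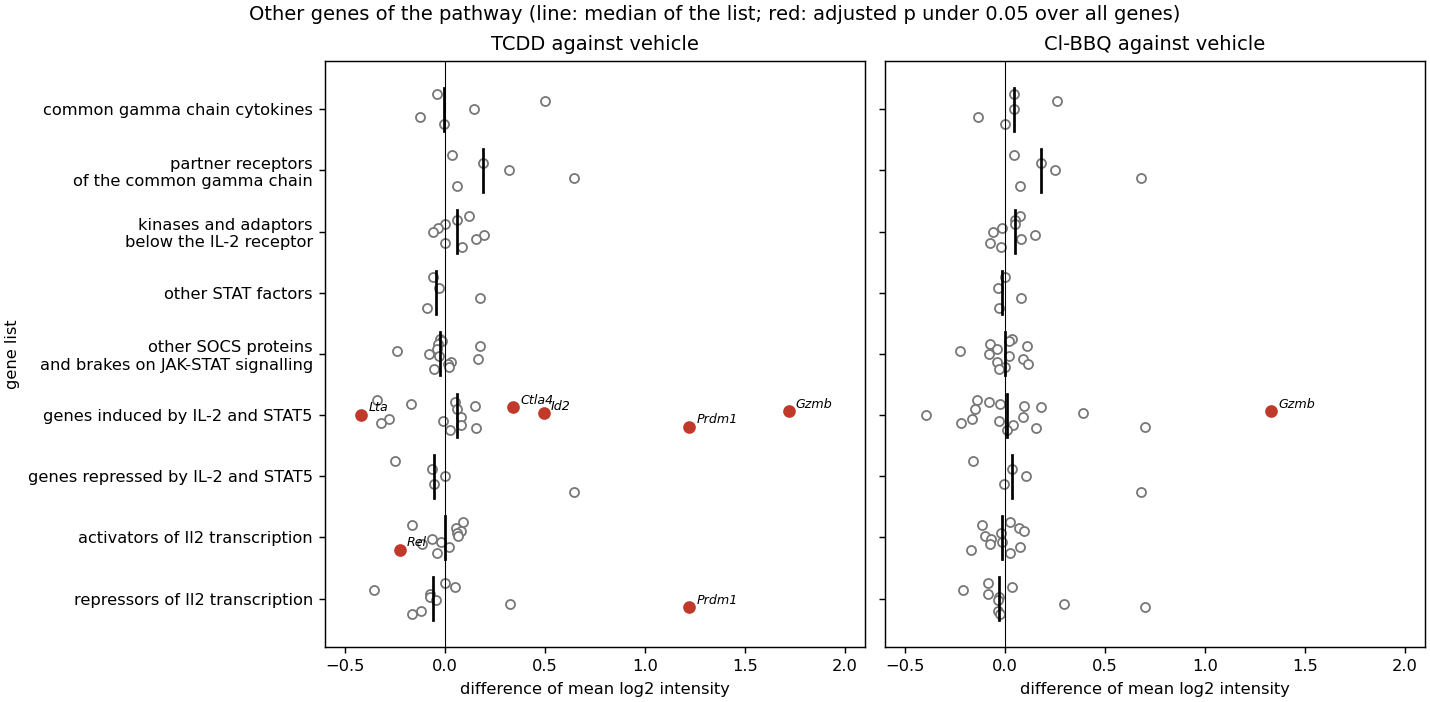
Difference of mean log2 intensity (horizontal axis) of each gene in 9 pathway lists (vertical axis), TCDD against vehicle on the left and Cl-BBQ against vehicle on the right; red points were called and vertical strokes are list medians. Medians lie between -0.06 and 0.19, while Gzmb and Prdm1 reach 1.72 and 1.22 with TCDD.

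As facts of the whole series, array medians ran from 7.11 to 7.24, and Cyp1b1 was 9.67 to 9.92 with TCDD against 6.25 to 6.57 with vehicle. Of 9 CD4 T cell identity genes 0 were called in any comparison by limma (unadjusted p under 0.05: 1 with TCDD, 0 in the others), with list means of 11.8 to 12.0 on every array. Among 8 regulatory T cell markers Ctla4 alone was called with TCDD; Foxp3, the defining factor, was at 8.05 ± 0.12, 8.11 ± 0.12 and 7.90 ± 0.16, and the list means were 9.31 to 9.52, 9.20 to 9.42 and 9.07 to 9.36 with vehicle, TCDD and Cl-BBQ. Of 11 B and plasma cell markers 0 rose and 2 fell with TCDD, Cd22 and Bank1. Cd22 read 7.59 to 8.52 on the vehicle arrays and 6.96 to 7.30 with TCDD. Of the 11 differences 5 were positive with TCDD and 6 with Cl-BBQ, with medians of -0.0028 and 0.0069. List means were 6.36 to 6.53 with vehicle, 6.25 to 6.37 with TCDD and 6.32 to 6.37 with Cl-BBQ. Of 14 myeloid and dendritic markers Cd74 alone fell with TCDD, and list means were 6.35 to 6.45, 6.28 to 6.37 and 6.35 to 6.41. Of the 14 differences 5 were positive with TCDD, with a median of -0.0353. In Il2 and in Cd22 alike vehicle array 4 was the highest of all, whereas Bank1 and Cd74 were highest on vehicle array 2. Bank1 read 7.83 on vehicle array 2 and 7.78 on vehicle array 4, and Cd74 7.40 and 7.35. The part of these markers in the Il2 result was not tested. Cd8a read 8.47 on vehicle array 2 and 6.96 to 7.03 on the other vehicle arrays, and the 2 CD8 genes gave 0 calls by limma (0 at unadjusted p under 0.05). Of 7 NK markers Gzma rose and Eomes fell with TCDD, and 1 rose with Cl-BBQ; of 9 neutrophil, platelet and erythroid markers 0 were called with either compound (0 at unadjusted p under 0.05, limma).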

How the data were processed

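The deposited values are log2 intensities that the authors made by RMA, per the submitters' processing notes. The version was not given in the sources used here, nor the probe library. The log2 scale was inferred from the range, 2.49 to 14.2. Of 35556 probe sets, 21789 carried 1 symbol, 1621 several, and 12146 were unnamed. Symbols came from the platform table; 21698 matched RefSeq by Entrez identifier and 0 changed. Of several probe sets per gene, the one with the highest mean was kept.

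All 12 arrays were fitted in limma 3.58.1 (R 4.3.3), 1 coefficient per group, 9 residual degrees of freedom, empirical Bayes with an intensity trend, two-sided; adjusted p values are over 19938 genes, and the fit was tested on simulated data. The members and gene lists were chosen with earlier results of these data known. Genes named from a list were the called ones, at most 4 by size, or else the largest difference. Alternatives covered trend, groups fitted, normalization, probe sets, dim genes, array weights, replicate block and single arrays left out. Deviations of same-numbered TCDD and Cl-BBQ arrays correlated at 0.606, 0.113, 0.157 and 0.365 across genes. With vehicle, 2 of 4 TCDD pairs (0.14 and 0.182) and 0 of 4 Cl-BBQ pairs exceeded 0.1. The labels state no pairing across groups, and arrays with different numbers were not compared. Whether the numbers pair any groups thus remained undecided. The number of arrays limits the precision. Permutations and figures used Python 3.11.15 with matplotlib 3.10.9.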

Additional observations from a re-analysis of the deposited data

Results flagged for a closer look

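Among the 27 sets of 4 values (9 members in 3 groups), 2 held an array far from the other 3 by Dixon's 95% criterion, both in Il2; chance alone gives about 1 such set in 20. The vehicle array of replicate 4 read 7.68 where the other 3 read 7.42 to 7.44, and the Cl-BBQ array of replicate 1 read 6.79 where the others read 7.18 to 7.24. Each lies on the far side of its group, away from the other group, so that both widen the Il2 difference between Cl-BBQ and vehicle. The vehicle array also widens the called difference with TCDD, which was -0.42 without it (limma adjusted p = 0.153).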

How the results depend on the processing

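Over 639 member values under the alternatives, 591 kept their direction and side of the threshold. The 6 calls kept their direction in all 111 alternatives, and 17 lost the call, 16 in Il2 and 1 in Socs3. Genes called with TCDD numbered 391 with array weights and 150 to 227 without 1 array. With Cl-BBQ they numbered 18 without a trend, 11 in a fit of those groups alone, 13 after centring, 96 after quantile normalization and 3 to 61 without 1 array (3 without Cl-BBQ 2, 4 without vehicle 4, 9 without vehicle 1, 16 without Cl-BBQ 4, 61 without Cl-BBQ 1), and members called 0 to 1. Between the compounds they numbered 0 without a trend, in a fit of those groups and after quantile normalization, 9 with array weights, and 0 to 7 without 1 array. For both compounds, genes called ran from 154 to 319 and members from 1 to 3 without 1 array, the lowest of each without vehicle 4. With the replicate block, genes called numbered 397 with TCDD, 111 with Cl-BBQ, 5 between the compounds and 395 for both; members called with Cl-BBQ numbered 1, Il2 (adjusted p = 0.0476, limma). The cause was not tested.

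The 28 values that changed sign were never called, at most 0.101 in size. For both compounds, Stat5b was -0.0088 and Socs1 -0.0161 after centring, and Socs1 -0.003 with array weights. Without 1 array, Socs1 ran from -0.0691 to 0.0661 with TCDD, -0.0244 to 0.1108 with Cl-BBQ, -0.0944 to 0.0034 between them and -0.0468 to 0.0885 for both; Il2ra from -0.101 to 0.399 and Stat5b from -0.0665 to 0.0225 with Cl-BBQ; Stat5b from -0.0109 to 0.043 for both; and between the compounds Stat5a from -0.0459 to 0.0157 and Il2rb from -0.0723 to 0.0126. With 4 arrays a group, the direction of such small differences was not determined.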
